A study of Mus musculus with 6 samples.

Results

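The bone morphogenetic protein (BMP) ligand genes Bmp2, Bmp4 and Bmp7, the inhibitor of DNA binding genes Id1, Id2, Id3 and Id4, the BMP inhibitor genes Bambi and Smad6 and the homeobox target gene Msx2 were followed through a mouse neural differentiation culture. These 10 genes, of 18194 measured, were chosen by name, as every probe set that the platform annotation gives to one of them and to no other gene. They are represented by 17 of the 45101 probe sets on the array.

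The cells carry the fluorescent protein Venus in the Oct4 (Pou5f1) locus and all come from 1 line, OLV2-1. RNA of sorted cells was hybridised to 6 Affymetrix 3' expression arrays, 2 per group. The first group is undifferentiated embryonic stem cells, abbreviated ESC. The second, named EpiSC-like after epiblast stem cells, was taken at day 3 of SFEBq, a serum-free aggregate culture for neural induction. The third is Oct4-Venus+ cells at day 7 of that culture. All 3 groups were sorted as Venus-positive. EpiSC-like cells were in addition Pecam1-negative, ESC were CD31-positive (CD31 is the Pecam1 protein) per the sorting protocol, and no Pecam1 gate is named for day 7. Trypsin, a rest of 1 hour and antibody staining preceded the sort of ESC and of day 3 aggregates, whereas EDTA was used at day 7. Gate and handling therefore cannot be told apart from stage in what follows. Whether the arrays within a group stem from separate cultures is not labelled. The p-values then reflect only the spread between these samples, which may be technical.

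BMP ligands bind paired type I and type II serine/threonine kinase receptors, which phosphorylate Smad1, Smad5 and Smad9. With Smad4 these enter the nucleus and switch on genes such as Id1 to Id4, Smad6, Bambi and Msx2. Id proteins have a helix-loop-helix domain without a DNA-binding region, and hold E proteins and neural basic helix-loop-helix (bHLH) factors off DNA. In mouse embryonic stem cells, BMP4 and the Id genes are known to restrain neural differentiation, and BMP inhibition is a textbook step of neural induction.

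Every array had been scaled by the authors to a trimmed mean of 500 intensity units, with medians of 63.99 to 76.3. The replicate 1 and replicate 2 arrays formed 2 technical sets. Hybridization controls averaged 4770 to 6104 in the first and 9855 to 11940 in the second, so the difference within each set is given beside each main result. The poly-A spike controls did not follow these sets. They averaged 73.3 and 76.9 on ESC replicate 2 and EpiSC-like replicate 2, and 591 to 826 on the other 4 arrays. The pluripotency gene Pou5f1 read 7927 and 14055 in ESC, 6244 and 9923 in EpiSC-like cells, and 6533 and 9062 at day 7. Fgf5, a postimplantation epiblast marker, and Sox1, a neural progenitor marker, were called higher in both SFEBq groups than in ESC. Fgf5 read 1009 and 1243 in EpiSC-like cells and 409 and 215 at day 7, and Sox1 347 and 557, then 205 and 135. Nanog read 9801 and 14048 in ESC, 5550 and 5573 in EpiSC-like cells, and 10058 and 11456 at day 7. Klf4 read 8870 and 7622, 1413 and 450, and 2307 and 4080 in the same order. Of 8 pluripotency markers, 2 were called lower in EpiSC-like cells and 0 at day 7, against ESC. Of 6 mesoderm, 6 trophoblast and 6 fibroblast markers, 1 passed in any comparison (Col1a2, a fibroblast collagen gene, higher in EpiSC-like cells than in ESC). With each array centred on its own median, the median over all genes was -0.13 (0.03 without centring) for EpiSC-like cells and -0.20 (0.02 without) for day 7, both against ESC. The calls then split into 184 higher and 149 lower (against 239 and 106) for EpiSC-like cells, and into 93 and 82 (against 137 and 52) for day 7.

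Differences are of log2(signal + 16) between group means, fitted with limma over all genes, and a gene passed, or was called, where its Benjamini-Hochberg adjusted p was under 0.05. Counted over the 10 genes, Bmp4 was lower and 0 genes were higher in EpiSC-like cells than in ESC. Among all genes 1.9% passed there in either direction, 1.31% being higher and 0.583% lower. At day 7, Bmp4 and Id1 were lower and Id4 was higher than in ESC, where 1.04% of all genes passed, 0.753% higher and 0.286% lower. Between day 7 and EpiSC-like cells 0 of the 10 passed in limma, where 0.0385% of all genes did (0.022% higher and 0.0165% lower). With the array set as a replicate block, 0 of the 10 passed in any of the 3 comparisons, and so did 0 of all 18194 genes. The limma adjusted p was then 0.0519 for Bmp4 in EpiSC-like cells, and 0.0664 for each of Bmp4, Id1 and Id4 at day 7, against ESC. An unadjusted p under 0.05 was reached without the block by 2, 5 and 4 of the 10 genes in the 3 comparisons, against 16%, 18.3% and 14.1% of all genes. The arrays of the groups did not overlap for 4, 7 and 7 of the 10, against 44.9%, 50.1% and 45.8% of all genes. The median difference of the 10 genes was -0.15, -0.10 and -0.09, against 0.03, 0.02 and -0.02 for all genes. The comparisons with ESC share the ESC arrays. Earlier results of these data were known when the 10 genes were chosen, so these counts describe the genes and test nothing about them as a group.

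The ligand gene Bmp4 was lower in both SFEBq groups than in ESC. Its mean signal was 0.155 times that of ESC in EpiSC-like cells and 0.142 times at day 7. Its probe set read 3411 and 7495 in ESC, 802 and 893 in EpiSC-like cells, and 657 and 887 at day 7. All 4 SFEBq arrays lay below both ESC arrays, while the EpiSC-like and day 7 arrays overlapped. Bmp4 averaged 848 ± 64.6 in EpiSC-like cells against 5453 ± 2888 in ESC (SD, n = 2 each). The log2 difference of signal + 16 was -2.56 ± 0.40 (standard error), and the limma adjusted p was 0.0380. It was -2.07 in the replicate 1 arrays and -3.05 in the replicate 2 arrays. Day 7 averaged 772 ± 163 (SD, n = 2), a difference from ESC of -2.70 ± 0.40 (limma adjusted p = 0.0442), and of -2.35 and -3.06 in the 2 sets. Between day 7 and EpiSC-like cells the difference was -0.15 with a 95% interval of -1.10 to 0.81. These are bulk RNA samples, in which fewer cells of a type and less RNA per cell cannot be told apart.

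Bmp4 passed against ESC in 9 of 18 alternative settings for EpiSC-like cells and 8 of 18 for day 7, with the same sign in all 18. In 6 of these settings 1 array was left out, which left 1 array in its group. The differences from ESC there ran from -3.12 to -1.99 for EpiSC-like cells and from -3.27 to -2.14 for day 7.

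Bmp7, which encodes a ligand of the same receptors, had its higher values at day 7 and passed in no comparison. It read 142 and 170 in ESC, 131 and 94.6 in EpiSC-like cells, and 293 and 220.5 at day 7. Both day 7 arrays lay above the other 4. The difference between day 7 and EpiSC-like cells was 1.08 ± 0.27 (1.07 and 1.10 in the 2 sets), with a limma adjusted p of 0.169. Against ESC it was 0.66 at day 7 (adjusted p = 0.271) and -0.43 in EpiSC-like cells (adjusted p = 0.524). A further probe set of Bmp7 read 62.4 and 58.7 in ESC, 59.7 and 15.99 in EpiSC-like cells and 103 and 69.5 at day 7. The third read 1.14 to 15.8 over all arrays, its higher values again at day 7.

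Bmp2, another ligand gene, was dim on 5 arrays and higher on 1. It read 18.5 and 24.7 in ESC, 21.0 and 17.8 in EpiSC-like cells, and 21.2 and 80.7 at day 7. The second day 7 array thus stood apart from the first, which lay within the range of ESC. The day 7 differences from ESC differed between the sets (0.11 and 1.25), and the fit gave 0.68 ± 0.44 (limma adjusted p = 0.475). Without day 7 replicate 2 the value was -0.01.

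Markers of primitive and visceral endoderm, in which Bmp2 is known to be expressed in the mouse embryo, also differed between the 2 day 7 arrays. Their summed signal over 10 genes was 1708 and 2066 in ESC, 1014 and 834 in EpiSC-like cells, and 2932 and 13044 at day 7. Most of the day 7 sums came from Col4a1 (1853 and 7417) and Lama1 (453 and 2415), which read 541 and 380, and 861 and 1365, in ESC. Of the 10 markers, 0 passed in limma in any comparison. Against ESC, 6 of the 10 had an unadjusted p under 0.05 at day 7, as did 18.3% of all genes. In that comparison 9 of the 10 had a difference above 0 and 1 below, against 9334 above and 8860 below among all genes. The defining gene Sox17 read 49.3 and 39.1 in ESC, 39.7 and 19.3 in EpiSC-like cells, and 111 and 751 at day 7. Gata4, the other defining gene, overlapped between the groups. It read 63.0 and 17.9 in ESC, 48.8 and 54.7 in EpiSC-like cells, and 36.8 and 55.1 at day 7. The part of these cells in the Bmp2 value was not tested.

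**Figure D1:**
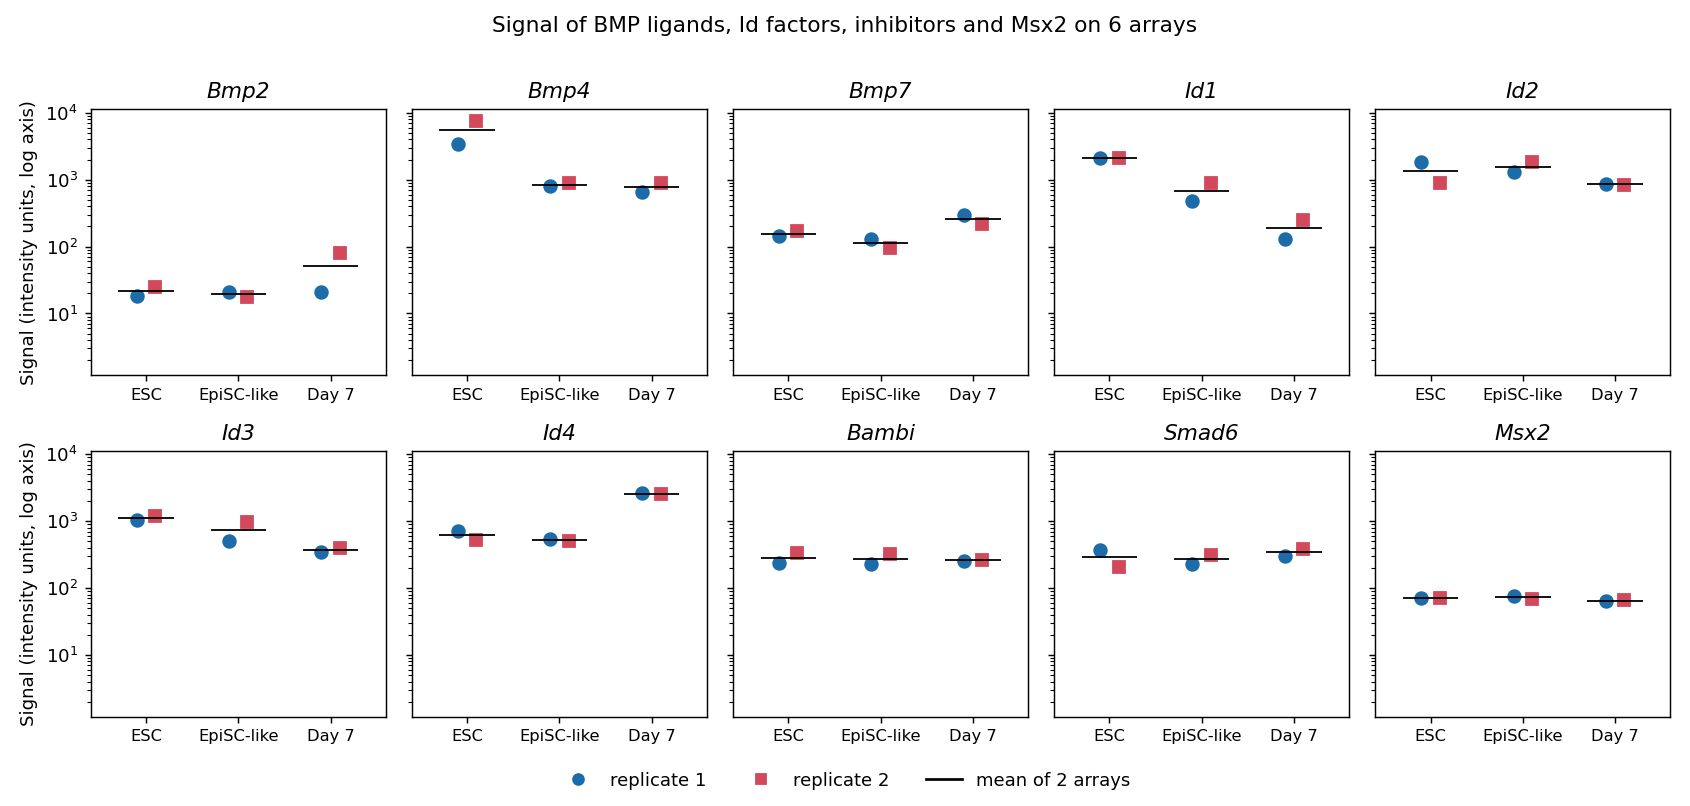
Signal of the brightest probe set of each gene on a log axis, by group (ESC, EpiSC-like at day 3, day 7). Circles are replicate 1 arrays, squares replicate 2 arrays, and bars the mean of 2 arrays. Bmp4 is low on all 4 SFEBq arrays, Id1 is lowest at day 7 (130 and 248), Id4 is highest at day 7 (2640 and 2532), and Bambi and Msx2 stay within narrow ranges.

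The 4 Id genes did not move together. At day 7 Id1 had fallen to 0.0888 times and Id4 had risen to 4.19 times its ESC mean. Id3 read lower without passing, and the probe sets of Id2 disagreed. On the log2 scale, the 3' minus 5' signal of the actin control, a sign of RNA quality, was also higher on the day 7 arrays (0.71 and 0.94) than on the other 4 (0.46 to 0.58), and its part in the day 7 values was not tested. That of the Gapdh control was -0.12 and -0.18 at day 7, within the range of the other 4 (-0.36 to 0.01). The promoter windows of Id2, Id3, Id4 and Smad6 in the RefSeq tables are shown because these genes are known targets of BMP signalling. Among them, Id4 alone passed in a comparison, and control by BMP was not measured in these cells. Each window runs from 250 bases before to 50 after the annotated start in GRCm38.p6, 5′ to 3′ on the gene's strand. Capitals mark the SMAD palindrome GTCTAGAC and the GC-rich BMP-SMAD motif GGCGCC, both searched on both strands (each is its own reverse complement, and the 2 do not overlap).
Id2: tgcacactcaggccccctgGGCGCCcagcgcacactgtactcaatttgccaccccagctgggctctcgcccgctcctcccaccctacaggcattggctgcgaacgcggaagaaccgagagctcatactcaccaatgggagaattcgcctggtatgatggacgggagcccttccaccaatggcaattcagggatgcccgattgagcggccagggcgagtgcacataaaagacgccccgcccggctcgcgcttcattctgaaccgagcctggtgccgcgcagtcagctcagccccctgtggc
Id3: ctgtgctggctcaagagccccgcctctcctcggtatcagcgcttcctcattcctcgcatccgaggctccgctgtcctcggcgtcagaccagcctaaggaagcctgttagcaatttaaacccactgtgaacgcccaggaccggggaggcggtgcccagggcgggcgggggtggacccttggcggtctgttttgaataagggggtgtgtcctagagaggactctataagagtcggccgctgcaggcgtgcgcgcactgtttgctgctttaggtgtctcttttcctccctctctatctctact
Id4: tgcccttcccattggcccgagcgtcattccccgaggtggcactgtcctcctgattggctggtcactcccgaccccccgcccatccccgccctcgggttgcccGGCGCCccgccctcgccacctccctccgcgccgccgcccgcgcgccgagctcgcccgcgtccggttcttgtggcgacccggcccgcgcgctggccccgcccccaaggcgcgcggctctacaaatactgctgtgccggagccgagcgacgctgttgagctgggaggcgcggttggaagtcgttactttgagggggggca
Smad6: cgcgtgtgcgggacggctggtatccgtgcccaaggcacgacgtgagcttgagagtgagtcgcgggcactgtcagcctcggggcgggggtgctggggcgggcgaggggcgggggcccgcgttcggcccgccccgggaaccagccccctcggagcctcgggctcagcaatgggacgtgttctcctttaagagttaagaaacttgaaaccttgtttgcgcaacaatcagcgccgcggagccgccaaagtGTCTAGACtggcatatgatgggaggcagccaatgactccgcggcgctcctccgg

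The window of Id2 lies at chr12:25096043-25096342 on the minus strand, that of Id3 at chr4:136143572-136143871 on the plus strand, and that of Id4 at chr13:48260866-48261165 on the plus strand. Smad6 lies at chr9:64022010-64022309 on the minus strand. GGCGCC occurred once in the window of Id2, starting 231 bases before the start, and once in that of Id4, starting 148 bases before it. Of 32841 promoter windows of this length, 11.9% held it. GTCTAGAC occurred in the window of Smad6 across the annotated start, and in 0.213% of all windows. Neither was found in the windows of Id3, Bmp4 or Msx2. Windows were matched for 6 of the 10 genes, and Id1, Bmp2, Bmp7 and Bambi were not searched here. Their GC content ran from 60.0% (Id3) to 73.3% (Id4), against a median of 52.7% over all windows. A match of letters is a description of the sequence and does not show binding.

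Id1, a widely used readout of BMP signalling, was lower in each later group. It read 2148 and 2108 in ESC, 487 and 887 in EpiSC-like cells, and 130 and 248 at day 7. The 3 groups did not overlap. Day 7 cells averaged 189 ± 83.4 against 2128 ± 28.3 in ESC (SD, n = 2 each), a log2 difference of -3.45 ± 0.39 with a limma adjusted p of 0.0291. The sets gave -3.89 and -3.01. EpiSC-like cells averaged 687 ± 282 (SD, n = 2), which was -1.67 ± 0.39 relative to ESC and did not pass (limma adjusted p = 0.101; -2.10 and -1.23 in the sets). The step between EpiSC-like cells and day 7 was -1.78 ± 0.39 (limma adjusted p = 0.135), with -1.79 and -1.77 in the sets.

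Of 18 alternative settings the day 7 call of Id1 against ESC held in 8, with the same sign in all. In 6 of these settings 1 array was left out, which left 1 array in its group, and the differences there were -3.88 to -3.02. The value for EpiSC-like cells against ESC passed in 3 settings (lowest adjusted p = 0.0279) and the step between EpiSC-like cells and day 7 in 1 (adjusted p = 0.0369).

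Id3, a close relative of Id1, had the same order of group means but smaller differences. It read 1046 and 1209 in ESC, 502 and 979 in EpiSC-like cells, and 342 and 400 at day 7. Both day 7 arrays lay below the other 4, and the EpiSC-like arrays differed from each other by more than neighbouring group means did. At day 7 the difference from ESC was -1.56 ± 0.35 (limma adjusted p = 0.0936), and -1.57 and -1.56 in the sets. It passed in 3 of 18 settings (lowest adjusted p = 0.0226). EpiSC-like cells stood at -0.67 ± 0.35 from ESC (limma adjusted p = 0.421). Day 7 stood at -0.89 ± 0.35 from EpiSC-like cells (limma adjusted p = 0.325).

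Id4, which is expressed in the developing nervous system, went the other way. It read 704 and 529 in ESC, 544 and 504 in EpiSC-like cells, and 2640 and 2532 at day 7. The ESC and EpiSC-like arrays overlapped, and both day 7 arrays lay well above them. Day 7 cells averaged 2586 ± 76.7 against 617 ± 124 in ESC (SD, n = 2 each). The log2 difference was 2.05 ± 0.24 (limma adjusted p = 0.0319), with 1.88 and 2.22 in the sets. Against EpiSC-like cells (524 ± 28.9, SD, n = 2) the difference was of similar size, 2.27 ± 0.24, but did not pass (limma adjusted p = 0.0625; 2.24 and 2.29 in the sets). EpiSC-like cells stood at -0.22 from ESC, with a 95% interval of -0.80 to 0.37.

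The other 2 probe sets of Id4 had the same order. They differed between day 7 and ESC by 1.70 ± 0.26 and 1.13 ± 0.28, and read 1451 and 1535, and 672 and 718, at day 7, against 518 and 390, and 263 and 361, in ESC. All 3 come from 1 source sequence in the annotation and are not independent of each other. The call against ESC held in 8 of 18 settings. In 6 of these 18 settings 1 array was left out, which left 1 array in its group, and the differences there were 1.85 to 2.254. The difference between day 7 and EpiSC-like cells passed in 4 settings (lowest adjusted p = 0.00528).

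Neural progenitor markers were higher in both SFEBq groups than in ESC for part of the list, while Id4 stood at its ESC level in EpiSC-like cells. In EpiSC-like cells 3 of the 7 markers were called higher than in ESC, and at day 7, 4 of the 7. Among all genes 1.31% and 0.753% were called higher there. Their summed signal was 774 and 759 in ESC, 4888 and 5583 in EpiSC-like cells, and 2723 and 3367 at day 7. Most of the gap between the SFEBq groups in this sum came from Prom1, which read 376 and 336 in ESC, 3163 and 3465 in EpiSC-like cells, and 1086 and 879 at day 7. Of the 7 markers, 3 had a difference above 0 and 4 below 0 for day 7 against EpiSC-like cells. Sox1 read 347 and 557 in EpiSC-like cells and 205 and 135 at day 7, and Pax6 read 249 and 351, then 171 and 184. Pax3 and Zic1, transcription factor genes of the dorsal neural tube, were among the 3 and had their highest values at day 7, as Id4 did. Pax3 read 14.0 and 35.2 in ESC, 108 and 86.6 in EpiSC-like cells, and 154 and 221 at day 7. Zic1 read 18.1 and 3.86 in ESC, 103 and 70.2 in EpiSC-like cells, and 145 and 252 at day 7. The remaining gene of the 3, Fabp7, read 702 and 797 in EpiSC-like cells, and 666 and 1511 at day 7. For day 7 against EpiSC-like cells the median difference of the 7 was -0.01, and 0 of the 7 passed in limma (5 at an unadjusted p under 0.05, against 14.1% of all genes). The part of neural cells in the Id4 value was not tested.

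Id2 gave no single picture. Its brightest probe set read 1838 and 892 in ESC, 1320 and 1826 in EpiSC-like cells, and 860 and 846 at day 7. The ESC arrays differed from each other by more than the group means did. Relative to ESC, the fit gave 0.27 ± 0.38 for EpiSC-like cells (-0.47 and 1.02 in the sets) and -0.58 ± 0.38 for day 7. Day 7 stood at -0.85 ± 0.38 from EpiSC-like cells, and limma gave adjusted p-values of 0.806, 0.474 and 0.386. A further probe set stood at -1.05 ± 0.40 for day 7 against ESC, and the dimmest, at 25.6 to 90.6 units, at 0.22 ± 0.31. All 3 probe sets read lower at day 7 than in EpiSC-like cells in both array sets, with fitted differences of -0.85, -1.07 and -0.65, none of which passed.

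**Figure D2:**
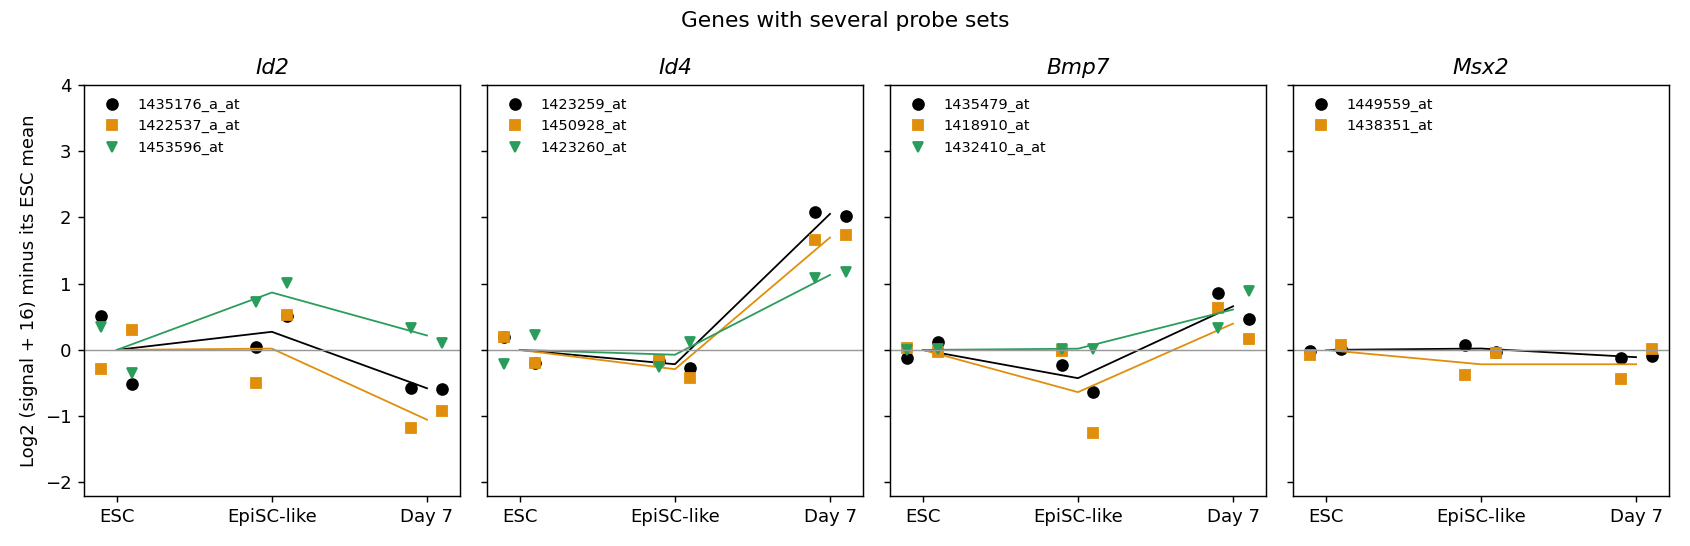
Log2 (signal + 16) of every probe set of the genes with more than 1, minus its own ESC mean, by group (ESC, EpiSC-like, day 7). Points are arrays, the left one of each pair being replicate 1, and lines join group means. The 3 Id4 probe sets lie between 1.13 and 2.05 at day 7, while those of Id2 lie between -1.05 and 0.22.

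The intracellular and membrane inhibitors that BMP signalling is known to induce passed in no comparison. Bambi, a membrane pseudoreceptor without a kinase domain, read 236 and 330 in ESC, 233 and 319 in EpiSC-like cells, and 256 and 267 at day 7. The groups overlapped throughout. Relative to ESC its difference was -0.03 in EpiSC-like cells (95% interval -0.69 to 0.63) and -0.09 at day 7 (-0.75 to 0.57), with limma adjusted p-values of 0.977 and 0.899. The step between EpiSC-like cells and day 7 was -0.06 (-0.72 to 0.60, adjusted p = 0.955).

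Smad6, an inhibitory Smad, read 369 and 206 in ESC, 233 and 312 in EpiSC-like cells, and 306 and 387 at day 7. The ESC arrays spanned nearly the whole range of the other 4. Day 7 stood at 0.30 from ESC with a 95% interval of -0.51 to 1.11 (limma adjusted p = 0.690), and EpiSC-like cells at -0.04 (-0.85 to 0.77, adjusted p = 0.980). In both cases the 2 array sets had opposite signs (-0.26 and 0.86, and -0.63 and 0.56). Day 7 against EpiSC-like cells gave 0.34 (-0.47 to 1.15, adjusted p = 0.720).

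Msx2, a homeobox repressor induced by BMP in surface ectoderm and neural crest, stayed dim. It read 70.8 and 72.1 in ESC, 76.2 and 69.5 in EpiSC-like cells, and 64.5 and 65.7 at day 7. Both day 7 arrays lay just below the other 4. Relative to ESC its difference was 0.02 in EpiSC-like cells (95% interval -0.50 to 0.54) and -0.11 at day 7 (-0.63 to 0.41). Day 7 stood at -0.13 from EpiSC-like cells (-0.65 to 0.39), and limma's adjusted p-values were 0.981, 0.835 and 0.843. The sign of the first difference turned when arrays were centred on their median (-0.13) or quantile normalized (-0.10). Its second probe set read 15.9 to 29.6. Of 8 neural crest and surface ectoderm markers, 0 passed at day 7 against ESC and 1, Snai2, was higher in EpiSC-like cells than in ESC.

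**Figure D3:**
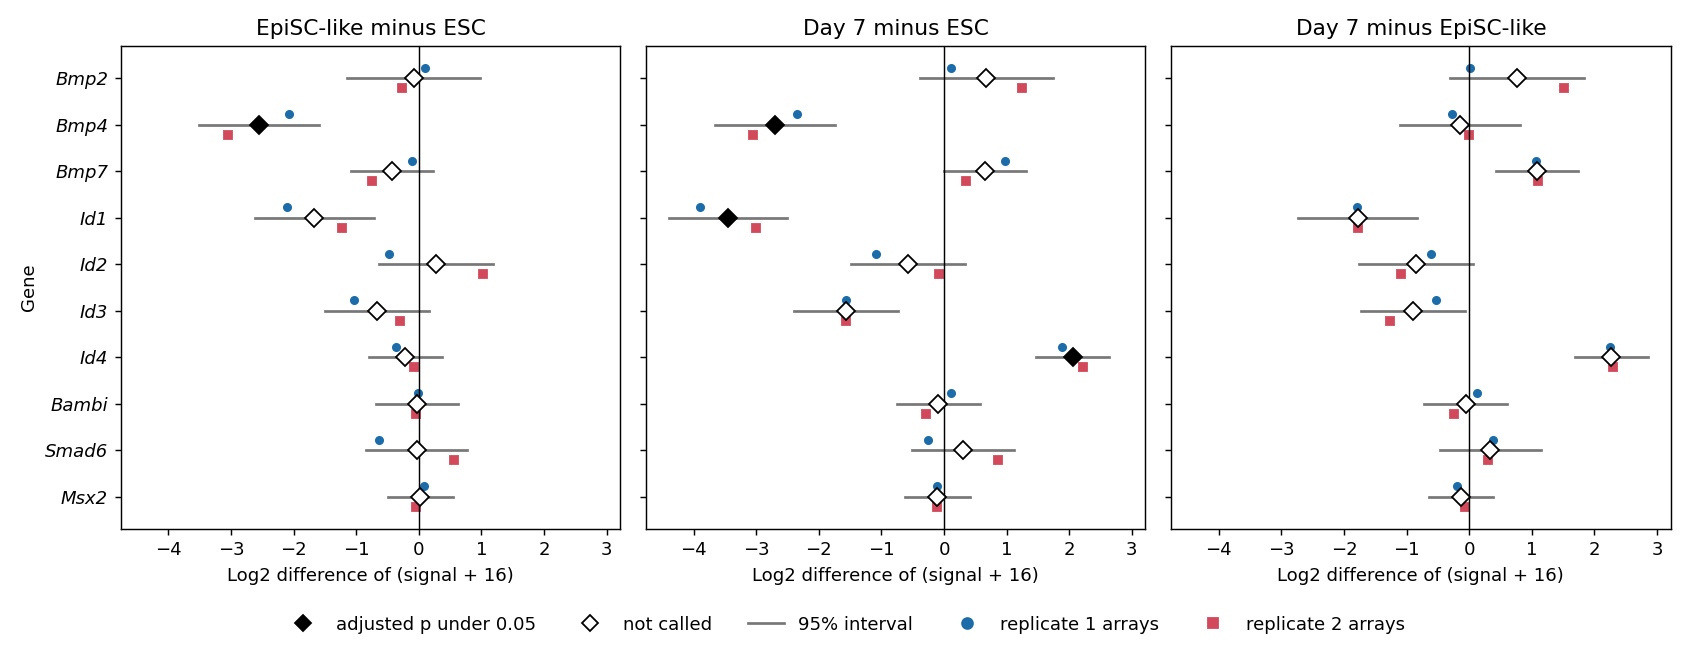
Log2 differences of (signal + 16) for the 10 genes in the 3 comparisons. Diamonds are the limma estimates (filled where the adjusted p was under 0.05), grey bars the 95% intervals, and small points the difference within the replicate 1 and the replicate 2 arrays. Only Bmp4 is filled for EpiSC-like cells against ESC, Bmp4, Id1 and Id4 are filled for day 7 against ESC, and none for day 7 against EpiSC-like cells, where Id4 stands at 2.27.

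The remaining genes of the pathway, 71 entries in 6 lists, were read for the same steps. Among the secreted antagonists, Fst and Htra1 changed in EpiSC-like cells. Fst encodes follistatin, which binds activin and some BMPs. It averaged 741 ± 254 in EpiSC-like cells against 78.9 ± 21.1 in ESC (SD, n = 2 each), a rise of 2.97 ± 0.39 on the log2 scale (limma adjusted p = 0.0272). Htra1, a secreted protease known to inhibit TGF-beta family signalling, averaged 333.5 ± 90.1 in EpiSC-like cells against 1112 ± 178 in ESC (SD, n = 2 each). Its difference was -1.71 ± 0.29 (limma adjusted p = 0.0476). At day 7 Fst stood at 2.24 ± 0.39 and Bmper, a secreted BMP-binding protein gene, at 1.03 ± 0.36 relative to ESC, with limma adjusted p-values of 0.0572 and 0.212. The other measured antagonists, 12 of 14, passed in no comparison. Nog, which encodes the classical antagonist noggin, read 2.31 to 12.9 on all 6 arrays, and Chrd, which encodes chordin, read 34.2 to 117. Both overlapped between ESC and each SFEBq group, and both Chrd values at day 7 lay below those of EpiSC-like cells.

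Of the 10 receptor and coreceptor genes 0 passed in limma, with 3 at an unadjusted p under 0.05 for EpiSC-like cells and 3 for day 7, both against ESC. Among all genes 16% and 18.3% reached that unadjusted p. The type I receptor gene Acvr1 read 959 and 643 in EpiSC-like cells and 692 and 639 at day 7, against 263 and 145 in ESC. Its differences from ESC were 1.92 ± 0.35 and 1.69 ± 0.35 (limma adjusted p = 0.0521 and 0.0808). The coreceptor gene Rgmb stood at 0.82 ± 0.23 in EpiSC-like cells and 0.91 ± 0.23 at day 7 relative to ESC (limma adjusted p = 0.155 and 0.120).

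Of the 11 transducers and brakes 0 passed in limma. An unadjusted p under 0.05 was reached by 7 for EpiSC-like cells and 4 for day 7 against ESC, where 16% and 18.3% of all genes did. Their median difference was 0.64 in EpiSC-like cells and 0.73 at day 7. Smad1 and Smad5, the receptor-activated Smads, stood at 1.00 ± 0.27 and 0.93 ± 0.24 in EpiSC-like cells. The inhibitory Smad7 stood at -0.60 ± 0.24 there and at -0.73 ± 0.24 at day 7. The Smad-binding repressor gene Zeb2 had the largest estimate in EpiSC-like cells, 2.37 ± 0.53 (limma adjusted p = 0.0896), and read 167 and 171 there against 29.6 and 12.2 in ESC. Skil, a Smad corepressor gene, stood at 1.03 ± 0.29 (limma adjusted p = 0.151). Smad9 stood at 1.05 ± 0.49 at day 7 from ESC values of 2.71 and 18.7.

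Of the 8 further BMP ligands measured, 0 passed in limma (2 and 1 at an unadjusted p under 0.05 against ESC, where 16% and 18.3% of all genes were). Bmp5 stood at 1.40 ± 0.33 both in EpiSC-like cells and at day 7 relative to ESC, from signals of 6.54 and 2.34 in ESC. Bmp6 stood at -0.70 ± 0.26 in EpiSC-like cells and Gdf3, a ligand gene of pluripotent cells, at -0.66 ± 0.28 at day 7. None of the 14 other BMP-responsive transcription factors passed in limma, with 5 and 4 at an unadjusted p under 0.05 against ESC (16% and 18.3% of all genes). Tbx3, a T-box factor of naive stem cells, read 1575 and 612 in EpiSC-like cells against 4208 and 4898 in ESC (-2.19 ± 0.43, limma adjusted p = 0.0645). Zfp423 stood at 1.36 ± 0.35 there and at -1.92 ± 0.35 for day 7 against EpiSC-like cells (limma adjusted p = 0.120 and 0.0987). At day 7 the surface ectoderm and trophoblast factor gene Gata3 read 30.8 and 48.6 against 3.17 and 2.82 in ESC (1.53 ± 0.26, limma adjusted p = 0.0531), and Hey1, a Notch and BMP target, read 385 and 356 against 120 and 116 (1.53 ± 0.36, adjusted p = 0.107).

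**Figure D4:**
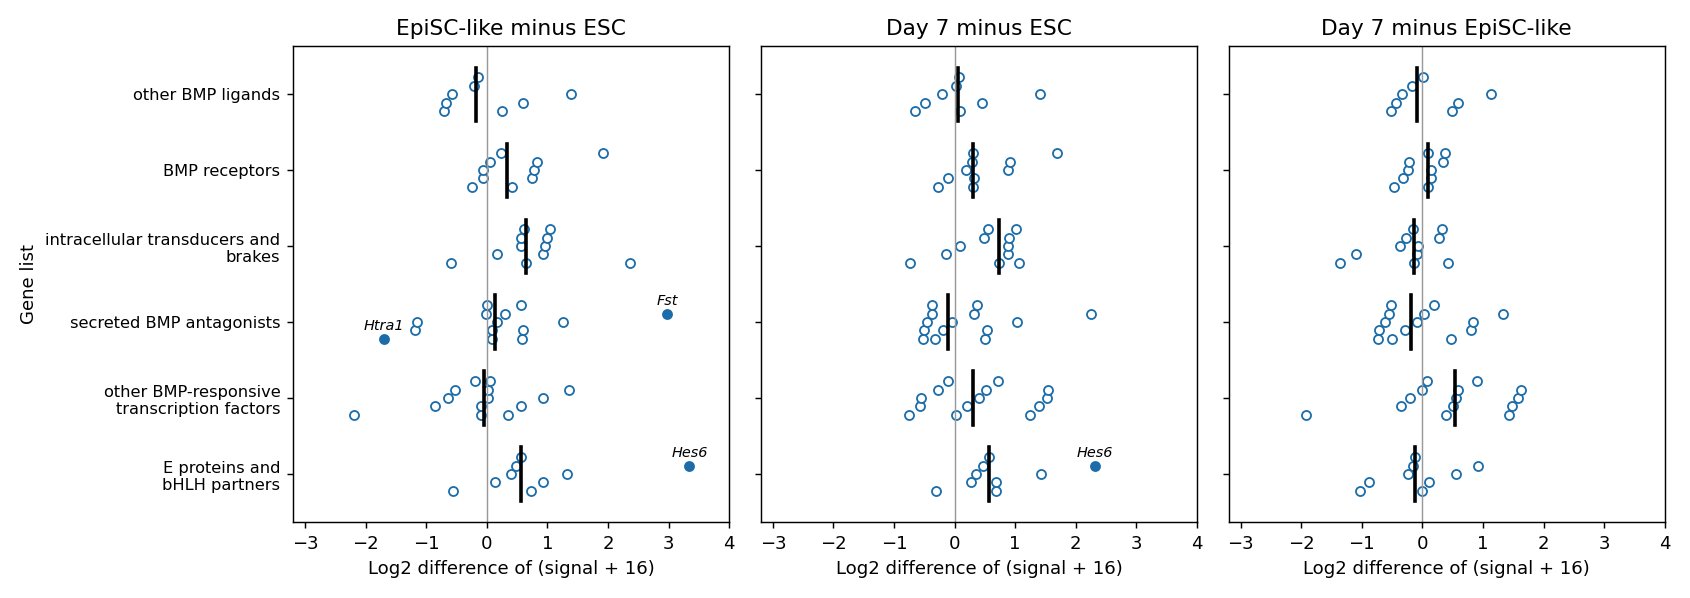
Log2 differences of (signal + 16) for the other genes of the pathway and for E proteins and bHLH factors, 1 circle per gene, filled and named where the limma adjusted p was under 0.05, with a black bar at each list's median. Fst and Htra1 are filled in the first panel, Hes6 in the first 2, and none in the panel of day 7 against EpiSC-like cells.

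In the list of E proteins and bHLH factors, the bHLH gene Hes6 rose in both SFEBq groups. Hes6, which promotes neuronal differentiation, read 2336 and 2129 in EpiSC-like cells and 1193 and 988 at day 7, against 234 and 180 in ESC. Its differences from ESC were 3.34 ± 0.25 (limma adjusted p = 0.0140) and 2.32 ± 0.25 (adjusted p = 0.0291). Of the 9 measured members 1 rose in each of these comparisons and 0 fell, with a median of 0.57 and 0.56. The E protein gene Tcf12 stood at 1.31 ± 0.26 and 1.43 ± 0.26 (limma adjusted p = 0.0619 and 0.0621). The proneural genes Neurog1 and Neurog2 were dim, at 4.80 to 21.9 and 13.4 to 71.7 over all arrays.

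In the step between EpiSC-like cells and day 7, 0 of the genes in these 6 lists passed in limma. The estimates furthest from 0, in list order, were those of Bmp8a (1.13), Bmp8b (0.60), Bmpr1a (-0.47), Rgma (0.37), Zeb2 (-1.35) and Ski (-1.09). Htra1 (1.33), Fstl3 (0.84), Zfp423 (-1.92), Hey1 (1.63), Hes6 (-1.03) and Neurog2 (0.91) completed them. The adjusted p-values of these 12 ranged from 0.0987 for Zfp423 to 0.783 for Rgma.

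Across the 6 arrays, other genes shared the profiles of Bmp4 and the Id genes. The highest Pearson correlations of log2 values with Bmp4 were those of Nmd3, Actn1 and Msc (0.998, 0.997 and 0.997), among 8886 genes at or above the median signal. Msc, a bHLH factor gene, read 534 and 876 in ESC, 151 and 160 in EpiSC-like cells, and 109 and 154 at day 7. Id1 was followed by Mrpl47, Psmd12 and Gin1 (0.994, 0.993 and 0.992), and Id3 by Pdcd6, Rbm22 and Bcdin3d (0.992, 0.991 and 0.991). Id4 was followed by Ptpn6, Dnah8 and Tox4 (0.996, 0.996 and 0.993), and Id2 by Sntb1, Myh6 and Melk (0.984, 0.980 and 0.971). A correlation over 0.95 was reached by 100 genes for Bmp4, 77 for Id1, 91 for Id3, 87 for Id4 and 5 for Id2. The points are 6 arrays in 3 groups and 2 array sets, so these values describe shape only, whatever the size of the change. Mrpl47, for example, read 7056 and 7372 in ESC and 4324 and 4775 at day 7.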

How the data were processed

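RNA of sorted OLV2-1 cells from 3 stages was measured on 6 Affymetrix arrays, 2 per stage. The authors deposited linear signal intensities per probe set, each array scaled to one 2% trimmed mean of 500, as the values show. Affymetrix Expression Console (version 1) is named in the submitters' processing notes, and its algorithm, detection calls and the genome build are not given in the sources used here. Depth has no meaning for arrays, and precision is limited by their number.

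Of 45101 probe sets, 64 controls were left out, and 34945 with 1 gene in the platform annotation were kept. RefSeq's GRCm38.p6 table held 34741 of these and changed 0 symbols. Each gene (18194) took its probe set with the highest mean of log2(signal + 16). Folds of dim genes are understated on this scale. One limma model (limma 3.58.1 under R 4.3.3) held a mean for each of the 3 groups over the 6 arrays, without a block, followed by plain eBayes (3 residual degrees of freedom). Tests were two-sided with Benjamini-Hochberg adjustment over all genes and a threshold of 0.05. SE and 95% intervals are limma's. On simulated data for day 7 against ESC with 18194 genes, 57 of 100 genes changed by 2 on the log2 scale and 78 of 100 changed by 3 were recovered, with 7 false calls. The simulated noise was independent between arrays and held no difference between array sets. These counts therefore check the fit and do not give its error rates on the real arrays.

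The members, gene lists, tests and alternatives were chosen with earlier results of these data known. All 10 members are described. Of each list, called members, or the 2 largest estimates where none was called, are named. Smad1, Smad5, Smad7, Nog, Chrd, Tcf12, Neurog1 and the named cell type markers were chosen after their values were seen. The genes most like a member were sought among those with at least the median signal and a gene symbol that is no clone name. List entries without a value are not analysed here. Replicate numbers are shared between groups, but deviations of same-numbered arrays correlated with r = 0.283, 0.0785 and 0.0969, and no label pairs them, so they were not taken as pairs.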

Additional observations from a re-analysis of the deposited data

How the results depend on the processing

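Of the 30 differences of members, 20 kept their sign in every alternative run, and the 4 called ones (Bmp4 in EpiSC-like cells and Bmp4, Id1 and Id4 at day 7, against ESC) were among them. Whether they passed depended on the setting. For EpiSC-like cells against ESC, where 1 member passed, 0 passed with a pseudocount of 1, with the replicate block, with all probe sets fitted together or with a block on the poly-A control level, and 2 (Bmp4 and Id1) passed with a pseudocount of 64, among genes at or above the median signal or with trended, robust eBayes. For day 7 against ESC, where 3 passed, 0 passed with a pseudocount of 1, with the replicate block (limma adjusted p = 0.0664 for Bmp4, Id1 and Id4), with all probe sets or with the poly-A block. In the other settings that kept every array, 3 or 4 passed. For day 7 against EpiSC-like cells, where 0 passed, 1 (Id4) passed with a pseudocount of 64, with genes below the 25th percentile left out or with trended, robust eBayes, and 2 (Id1 and Id4) among genes at or above the median. Leaving out 1 array left 1 array in its group and fewer arrays to estimate the spread, so only the differences of those fits are described. The cause of the changes in these counts was not tested.

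Over all 18194 genes, 0 passed in either comparison with ESC with a pseudocount of 1 or with the replicate block. For day 7 against ESC, 0 passed with the poly-A block, and 4 were higher and 3 lower with all probe sets. A pseudocount of 64 gave 471 and 208, and the 9097 genes at or above the median 570 and 292. For EpiSC-like cells against ESC, all probe sets gave 105 higher and 38 lower, the poly-A block 86 and 30, and a pseudocount of 64 449 and 223. The member counts thus moved with those of all genes in these settings. The poly-A block and the choice of probe set by linear signal were added after seeing the data. Values near 0 changed sign. Msx2 in EpiSC-like cells against ESC went to -0.13 with centring, -0.10 with quantile normalization and -0.10 with probe sets averaged. With the poly-A block Bambi went to 0.13 against ESC and 0.16 against EpiSC-like cells at day 7, and Bmp4 to 0.17 for day 7 against EpiSC-like cells. With 1 array left out, the ranges that crossed 0 for EpiSC-like cells against ESC were -0.20 to 0.036 (Bmp2), -0.24 to 0.79 (Id2), -0.26 to 0.19 (Bambi), -0.43 to 0.36 (Smad6) and -0.033 to 0.075 (Msx2). Those for day 7 against ESC were -0.012 to 1.37 (Bmp2), -0.32 to 0.14 (Bambi) and -0.10 to 0.70 (Smad6), and those for day 7 against EpiSC-like cells -0.36 to 0.066 (Bmp4) and -0.27 to 0.15 (Bambi).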
